A study of Arabidopsis thaliana with 24 samples.

Results

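In Arabidopsis thaliana shoots, the response to an overexpressed anthocyanin regulator was set against itself in plants with and without chalcone synthase (CHS). The quantity is an interaction on the log2 scale: the difference pap1-D/tt4 minus tt4, less the difference pap1-D minus Col-0. A positive value means that pap1-D raised a transcript more, or lowered it less, without CHS than with it. The 4 genotypes were taken by the array titles and hold 3 arrays each, so 12 of the 24 arrays of the series carry the contrast. pap1-D/tt4 is the homozygous cross of pap1-D with tt4, tt4 is the CHS mutant in the Col-0 background, pap1-D overexpresses MYB75/PAP1 in the Col-0 background, and Col-0 is the wild type. Further comparisons use MYB12OX, an overexpressor of the flavonol regulator MYB12 in the Col-0 background, its homozygous cross with tt4 (MYB12OX/tt4), and WOX1-1 and WOX1-2, homozygous crosses of MYB12OX and pap1-D. RNA of all lines came from aerial parts of 3-week-old plants grown on agar with 1% sucrose at 22 °C, with 16 h of light and 8 h of dark. The growth protocol also mentions a drought experiment, to which no label ties an array. The tt4 allele is not named, and nothing says whether the 3 arrays per genotype were separate plants, pools or repeat hybridisations. A p-value here thus rests on array-to-array spread, part or all of which may be technical.

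Flavonoids are made from a chain of enzymes that starts with CHS, whose product is the precursor of flavonols, anthocyanins and seed tannins. PAP1 is a MYB transcription factor that acts with bHLH and WD40 partners on the late genes of anthocyanin synthesis. The line pap1-D is an activation-tagged plant in which enhancers next to the gene keep it on. Without CHS the later enzymes have no substrate, and anthocyanins cannot be made. The comparison therefore asks which transcripts answer PAP1 differently in that state.

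The arrays were Affymetrix ATH1 GeneChips, and levels are MAS5 signals on a linear scale. Differences are of log2(signal + 42.6), which understates changes of dim probe sets. A single limma model over all 8 genotypes gave every difference, its SE and its adjusted p (Benjamini-Hochberg over 14935 probe sets), and an adjusted p under 0.05 is a call. Over the 12 arrays the median signal ranged from 164.5 to 176.7, and each array's mean r with its own genotype from 0.986 to 0.991. pap1-D replicate 1 stood apart from the other arrays of its line on the second principal component, at -22.3 against -5.58 and -8.57. Replicate 1 was also the lowest there in WOX1-1 (-22.1 against -7.81 and -7.61), WOX1-2, MYB12OX/tt4 and pap1-D/tt4, but not in Col-0, MYB12OX and tt4. Samples are whole shoots, so fewer cells of a type and less RNA per cell cannot be told apart. The leaf gene RCA, the activase of Rubisco, averaged 21100 in pap1-D/tt4, 21340 in tt4, 24770 in pap1-D and 24990 in Col-0, and its interaction was -0.00 ± 0.11 (SE, adjusted p = 0.999).

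A probe set without a gene name in the annotation used here was chosen, after its values were seen, because it separates the pap1-D lines from the rest. Its values describe the lines and do not test their labels. It read 3254, 3611 and 3746 in pap1-D/tt4, against 21.2, 11.3 and 10.3 in tt4. It read 4952, 4766 and 5054 in pap1-D, against 41.4, 70.3 and 47.2 in Col-0. Of the 12 arrays, those of pap1-D/tt4 and pap1-D were high and those of tt4 and Col-0 low, and all pap1-D/tt4 arrays lay below all pap1-D arrays. The crosses WOX1-1 and WOX1-2 were high as well, at 3488 to 4449. The CHS transcript was not analysed here.

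The anthocyanin genes answered pap1-D in plants without CHS, and none of them had a called interaction. All 4 tested genes of the anthocyanin list, of 10 in the list, rose in pap1-D/tt4 against tt4, where 0.134% of the tested probe sets rose. The same 4 rose in pap1-D against Col-0, where 5.07% rose. The median difference of the 4 genes was 2.98 without CHS and 3.16 with CHS, beside medians over all tested probe sets of -0.01 and -0.04. Their median interaction was -0.24, against 0.02 over all tested probe sets, and 0 of 4 passed, where 1.17% of all tested probe sets did. All 4 passed the signal threshold for testing only through lines with pap1-D, so their counts of rises describe them and test nothing about the list. The list was drawn up with earlier results of these data known.

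DFR, dihydroflavonol reductase, catalyses the step that commits flavonoids to anthocyanins. Its signal was 1952, 2556 and 1968 in pap1-D/tt4, against 8.78, 37.2 and 35.3 in tt4, a difference of 5.00 ± 0.19 (about 32-fold; SE, limma adjusted p = 4.64e-14). In pap1-D it was 2706, 2930 and 2547, against 25.5, 73.6 and 14.8 in Col-0, a difference of 5.17 ± 0.19 (limma adjusted p = 2.27e-14). The arrays of the 2 genotypes did not overlap in either background, and the lines without pap1-D lay below 85.2, the signal a probe set had to pass to be tested. The interaction was -0.17 ± 0.27 (adjusted p = 0.842), with a 95% interval from -0.74 to 0.39.

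UF3GT, the xylosyltransferase that adds a second sugar to anthocyanins, read 586, 561 and 430 in pap1-D/tt4, against 22.4, 34.2 and 40.0 in tt4. It read 841, 837 and 763 in pap1-D, against 47.5, 80.0 and 79.9 in Col-0. The differences were 2.92 ± 0.13 without CHS and 2.95 ± 0.13 with CHS, and the interaction of -0.03 had the narrowest 95% interval of the 4 genes, from -0.42 to 0.36. Although the difference was alike, the UF3GT signal was lower in pap1-D/tt4 than in pap1-D, and lower in tt4 than in Col-0, on every array.

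AT4G14090 encodes the anthocyanin 5-O-glucosyltransferase. Its signal was 335, 527 and 314 in pap1-D/tt4, against 14.9, 2.79 and 9.66 in tt4. It was 408, 609 and 543 in pap1-D, against 9.81, 10.1 and 13.4 in Col-0. The differences were 3.045 ± 0.16 and 3.37 ± 0.16, and the interaction was -0.33 ± 0.23 (adjusted p = 0.572; 95% interval -0.80 to 0.15). AT5MAT, the malonyltransferase of the anthocyanin 5-glucoside, read 241, 201 and 237 in pap1-D/tt4, against 6.54, 44.4 and 42.2 in tt4. It read 379, 355 and 336 in pap1-D, against 39.3, 47.8 and 40.5 in Col-0. Its differences were 1.91 ± 0.16 and 2.23 ± 0.16, and the interaction was -0.32 ± 0.23 (adjusted p = 0.59; 95% interval -0.80 to 0.16). The intervals of AT4G14090 and AT5MAT allow a pap1-D response that is smaller without CHS by up to 0.80 on the log2 scale. A missed threshold does not show that the responses were equal.

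**Figure D1:**
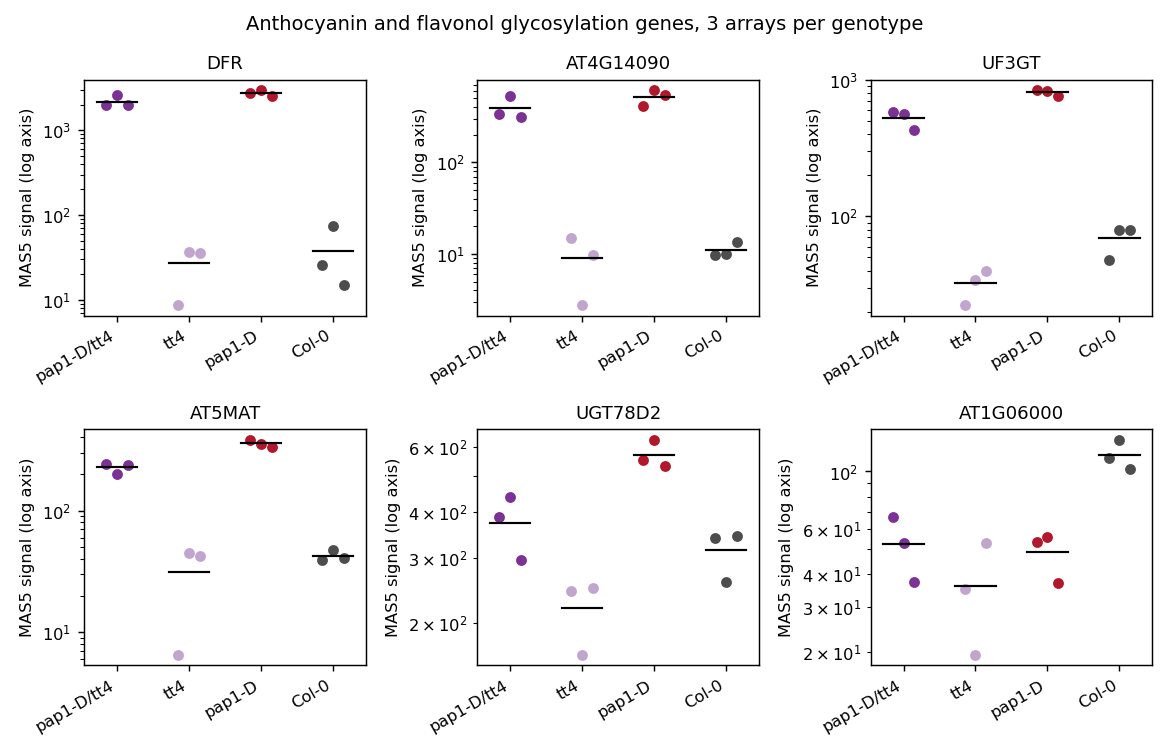
MAS5 signal (log axis) of 6 genes on the 12 arrays of pap1-D/tt4, tt4, pap1-D and Col-0, with points for arrays and bars for genotype means. DFR, AT4G14090, UF3GT and AT5MAT are high in pap1-D/tt4 and pap1-D alike, whereas AT1G06000 is high only in Col-0 among these 4 genotypes (112.8, 132 and 101.9).

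Genes of flavonol glycosylation attach sugars to the flavonol skeleton. UGT78D2, the 3-O-glucosyltransferase that serves flavonols and anthocyanins, read 387, 438 and 296 in pap1-D/tt4, against 244, 164 and 249 in tt4. It read 554, 626 and 534 in pap1-D, against 341, 258 and 344 in Col-0. It rose by 0.67 ± 0.14 without CHS (limma adjusted p = 0.043) and by 0.79 ± 0.14 with CHS, with an interaction of -0.12 ± 0.19 (adjusted p = 0.849). AT1G06000, the flavonol 7-O-rhamnosyltransferase gene, read 66.7, 53.0 and 37.3 in pap1-D/tt4, against 35.2, 19.6 and 53.0 in tt4, a difference of 0.28 ± 0.17 (limma adjusted p = 0.945). It read 53.2, 55.6 and 37.1 in pap1-D, against 113, 132 and 102 in Col-0, a difference of -0.80 ± 0.17. Its interaction passed at 1.08 ± 0.24 (adjusted p = 0.0274), and of the 12 arrays only those of Col-0 lay above the signal of 85.2. It was tested only because of the group in which it was high, so its call supports nothing about the list, and it passed in 6 of 12 fits that left out 1 array. UGT78D1, the flavonol 3-O-rhamnosyltransferase gene, had an interaction of 0.41 ± 0.25 (adjusted p = 0.52). Of 6 genes in this list 3 were tested, and the interaction of 1 passed, against 1.17% of all tested probe sets. CHIL, a chalcone isomerase-like protein that aids CHS, was the only tested gene of the flavonoid core list, at -0.86 ± 0.44 (adjusted p = 0.403). Without pap1-D/tt4 replicate 3, which read 10.9 beside 121 and 133 for replicates 1 and 2, it was at -0.30.

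Across the whole table, fewer probe sets were called for pap1-D without CHS than with it. Between pap1-D/tt4 and tt4 the fit called 22 probe sets (0.147% of those tested), 20 higher and 2 lower (0.0134%). Between pap1-D and Col-0 it called 1508 (10.1%), 757 higher and 751 lower (5.03%). At least 2-fold and called were 11 without CHS and 72 with CHS. Of the 22 calls without CHS, 19 (86.4%) were also called with CHS, and these are 1.26% of the calls with CHS. All 19 had the same sign in both. Without Col-0 replicate 1 the count with CHS was 716, and without pap1-D replicate 3 it was 879. With the place of each array in the sample listing as a covariate, the counts were 80 without CHS and 163 with CHS. That covariate follows the replicate number within each genotype, so these counts do not adjust for the order of the genotypes. The 2 comparisons share no array. Across 14935 probe sets their differences had a Pearson r of 0.36 and a Spearman rho of 0.138, given as a description, since genes are not independent replicates and the groups also differ in their place in the listing.

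Beside the 4 anthocyanin genes and UGT78D2, 3 named genes were called between pap1-D/tt4 and tt4. AT1G34580, a hexose transporter gene of the STP family, read 157, 148 and 154 in pap1-D/tt4, against 75.2, 78.2 and 78.6 in tt4, and rose by 0.71 ± 0.12 (limma adjusted p = 0.00744). In pap1-D it read 160.0, 186 and 178, against 160.1, 109 and 131 in Col-0, where the arrays overlapped and the difference was 0.31 ± 0.12 (limma adjusted p = 0.111). AT4G04750, a gene of the ERD6-like sugar transporter family, rose by 0.54 ± 0.11 in pap1-D/tt4 (limma adjusted p = 0.0373) and was at 0.09 ± 0.11 in pap1-D. AT5G65685 read 576, 640 and 608 in pap1-D/tt4, against 1249, 1231 and 1269 in tt4, and fell by 0.99 ± 0.08. It read 839, 741 and 934 in pap1-D, against 1512, 1356 and 1370 in Col-0, and fell by 0.73 ± 0.08. None of these 3 had a called interaction in the contrast of the 4 genotypes, with values of 0.39 for AT1G34580, 0.46 for AT4G04750 and -0.26 for AT5G65685. However, AT5G65685 averaged 1248 in WOX1-1 and 1106 in WOX1-2, against 1265 in MYB12OX. With these lines as the pair with CHS, its interaction was called at -0.97 for WOX1-1 (limma adjusted p = 0.000303) and -0.80 for WOX1-2 (limma adjusted p = 0.000567). AT4G04750 was called at 0.79 with WOX1-2 (limma adjusted p = 0.00499) and not with WOX1-1.

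**Figure D2:**
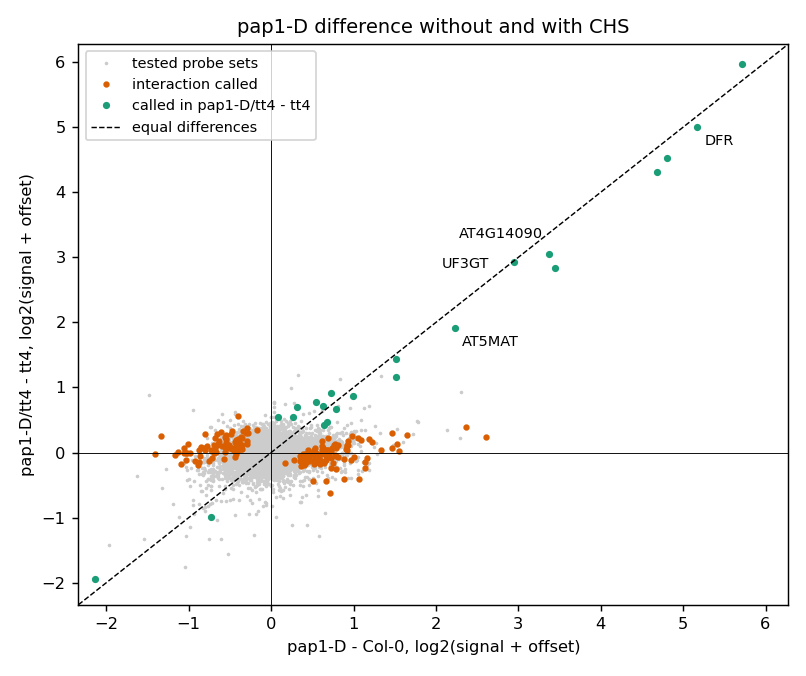
Difference pap1-D minus Col-0 (x axis) against pap1-D/tt4 minus tt4 (y axis) for 14935 probe sets, both in log2(signal + 42.6), with the line of equal differences. The anthocyanin genes lie near that line, with DFR at 5.17 and 5.00, and most probe sets with a called interaction lie along the horizontal axis, to either side of 0.

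The interaction itself was called for 175 probe sets (1.17%), 79 positive (0.529%) and 96 negative (0.643%), of which 29 were at least 2-fold. Unadjusted, 2073 had p under 0.05, a level that about 747 probe sets reach if no gene differs. The count of calls was 60 with the 4 genotypes fitted alone. It was 53 without Col-0 replicate 1, 78 without pap1-D replicate 3, 83 without pap1-D/tt4 replicate 2 and 254 without pap1-D replicate 1. A total of 81 of the 175 carry a gene name. All 79 positive probe sets were lower in pap1-D than in Col-0, and all 96 negative probe sets were higher in pap1-D than in Col-0. The difference was larger in size with CHS than without for 170 of the 175. Of the 175, 171 were called between pap1-D and Col-0, 0 between pap1-D/tt4 and tt4 and 4 in neither, which describes the calls, since the interaction is made of the same arrays. In the positive set the median difference was 0.09 without CHS and -0.55 with CHS. In the negative set it was -0.05 and 0.66. For loss of CHS, the median of the positive set was -0.31 in pap1-D/tt4 against pap1-D and -1.04 in tt4 against Col-0. That of the negative set was 0.14 and 0.77. These medians describe sets chosen by the same contrast and carry no test.

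The lowest p of the table belonged to a probe set without a gene name, singled out after its values were seen. It read 109.5, 114 and 97.8 in pap1-D/tt4, against 82.5, 71.7 and 100.7 in tt4, a difference of 0.24 ± 0.15 (limma adjusted p = 0.963). It read 1471, 1353 and 1403 in pap1-D, against 230.5, 156 and 208 in Col-0, a difference of 2.60 ± 0.15 (limma adjusted p = 5.48e-11). Of the 12 arrays, those of pap1-D alone were high, and the interaction was -2.37 ± 0.21 (adjusted p = 2.62e-06). Outside the contrast the means were 1318 in WOX1-1 and 1285 in WOX1-2, against 186 in MYB12OX and 89.3 in MYB12OX/tt4. The annotation used here does not name the gene it reads, and whether that is CHS itself was not tested. This probe set was called in all 26 alternative fits, with an adjusted p between 2.7e-07 and 0.0195. None of the 36 genes named here with a called interaction did so. Of these 36, 12 passed whichever of the 12 arrays was left out, and MYR2, AT3G28850, AT4G16880 and AT5G67390 passed in 2 of those 12 fits.

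The named genes with a positive interaction had their highest mean of the 4 genotypes in Col-0, apart from MYR2. Col-0 was the highest or lowest of the 4 genotypes for 169 of the 175 called probe sets, and for 65.5% of all tested. The same count was 103 for tt4 (53.1% of all tested), 39 for pap1-D/tt4 (39.7%) and 39 for pap1-D (41.8%). All 4 genotypes enter the contrast with equal weight, so its calls favour probe sets in which any 1 of them is extreme. The probe sets were chosen by this contrast, so the counts are a description, and their cause was not tested. AT5G01790 read 108, 99.96 and 95.1 in pap1-D/tt4, against 116, 78.2 and 108 in tt4. It read 153, 135 and 124 in pap1-D, against 347, 384 and 318 in Col-0, and its interaction was 1.14 ± 0.16 (adjusted p = 0.00122). AT5G55620 read 698, 757 and 739 in pap1-D/tt4, against 798, 804 and 830 in tt4. It read 912, 801 and 944 in pap1-D, against 1849, 1592 and 1538 in Col-0, with an interaction of 0.73 ± 0.10 (adjusted p = 0.00122). For AT5G01790 and AT5G55620 the Col-0 arrays stood above the other 9 without overlap.

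AT1G20070 had the largest positive interaction outside the lists, 1.39 ± 0.26 (adjusted p = 0.00892), with means of 72.8 in pap1-D/tt4, 74.5 in tt4, 52.3 in pap1-D and 207 in Col-0. AT5G02830 was at 1.02 ± 0.21. CYP71B26, AT1G66540 and CYP71B35, which encode cytochrome P450 enzymes, were at 0.92 ± 0.16, 0.94 ± 0.21 and 0.78 ± 0.16. AT1G66540 and AT5G42760 were likewise tested only because of their Col-0 arrays. AT1G73600, a phosphoethanolamine methyltransferase gene of phosphatidylcholine synthesis, was at 0.92 ± 0.20, and the wall-associated kinase-like gene AT1G69730 at 0.93 ± 0.22. MYR2, a MYB-related transcription factor gene, was at 0.81 ± 0.19, with means of 119 in pap1-D/tt4, 85.8 in tt4, 64.4 in pap1-D and 107.5 in Col-0. The other 5 of the 15 genes named in this direction were AT5G42760, AT4G16880, AT5G67390, AT1G62030 and AT3G04310, between 0.70 and 0.93.

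**Figure D3:**
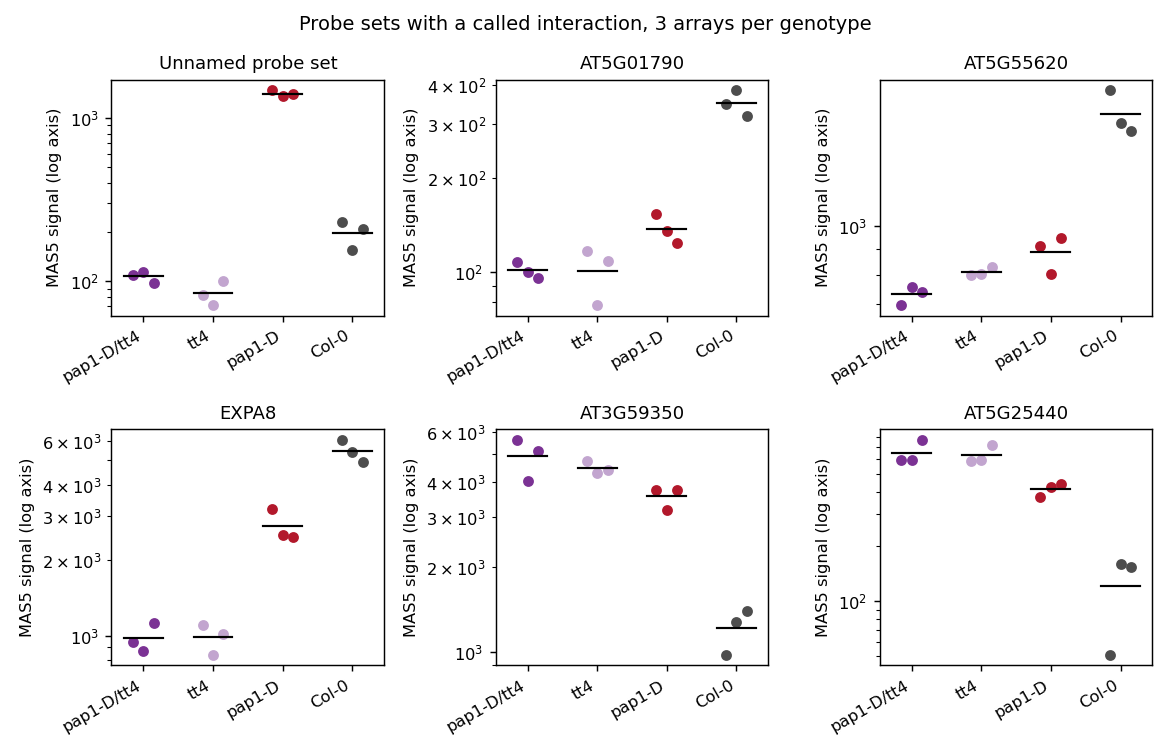
MAS5 signal (log axis) of 6 probe sets with a called interaction on the arrays of pap1-D/tt4, tt4, pap1-D and Col-0, with points for arrays and bars for genotype means. In the unnamed probe set the pap1-D arrays (1353 to 1471) stand alone, and in the 5 named genes the Col-0 arrays stand apart from the rest.

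The named genes with a negative interaction had their lowest mean of the 4 genotypes in Col-0, likewise a description of genes chosen by the contrast. The largest values outside the lists were those of AT5G25440 and AT3G59350, both protein kinase genes. AT5G25440 read 599, 594 and 766 in pap1-D/tt4, against 591, 599 and 722 in tt4. It read 372, 423 and 440 in pap1-D, against 51.1, 159 and 155 in Col-0, with an interaction of -1.52 ± 0.29 (adjusted p = 0.0103). AT3G59350 read 5616, 4030 and 5130 in pap1-D/tt4, against 4728, 4287 and 4388 in tt4. It read 3756, 3184 and 3746 in pap1-D, against 979, 1272 and 1393 in Col-0, with an interaction of -1.40 ± 0.20 (adjusted p = 0.0013). AT2G31010, also a protein kinase gene, was at -0.85 ± 0.20.

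AT1G72060, annotated as a protease inhibitor, was at -1.29 ± 0.23, with means of 1056 in pap1-D/tt4, 1198 in tt4, 636 in pap1-D and 267 in Col-0. AT1G63750 and AT1G61100, which encode resistance proteins of the TIR class, were at -1.08 ± 0.25 and -0.98 ± 0.21. The glutaredoxin-family gene AT3G28850 was at -1.28 ± 0.32. AT2G34510, a gene of the DUF642 cell wall protein family, was at -0.90 ± 0.15. RALFL22, a signalling peptide gene of the RALF family, was at -0.83 ± 0.18, and AT2G44500, of the O-fucosyltransferase family, at -0.80 ± 0.13. AT2G44500 averaged 744 in pap1-D/tt4, 680 in tt4, 1248 in pap1-D and 644 in Col-0, so that here the pap1-D arrays were the high ones. The other 5 of the 15, AT2G39210, AT3G15440, AT5G57760, HHP2 and AT1G52200, lay between -0.95 and -0.78.

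The 22 gene lists held 266 genes, of which 57 could be read from a probe set of their own. Of those 49 were tested, in 18 lists, and the lists of flavonoid regulators, oxidative stress, tau glutathione transferases and seed markers had no tested member. The interaction passed for 3 of them in the positive and 3 in the negative direction, where 0.529% and 0.643% of all tested probe sets did. The lists were drawn up with earlier results of these data known, and AT1G06000 was tested only because of its Col-0 arrays. These counts and those of single lists therefore describe the genes and test nothing about the lists. In the list of expansins and growth genes, 9 of 15 were tested, 1 passed as positive and 2 as negative (0.529% and 0.643% of all tested), and the median interaction was 0.01, against 0.02 over all tested probe sets. EXPA8, an alpha-expansin that loosens cell walls, read 943, 870 and 1123 in pap1-D/tt4, against 1098, 841 and 1013 in tt4. It read 3208, 2531 and 2469 in pap1-D, against 6027, 5430 and 4909 in Col-0, with an interaction of 0.98 ± 0.17 (adjusted p = 0.00475). The expansin-like gene EXLA1 averaged 3392 in pap1-D/tt4, 2766 in tt4, 4205 in pap1-D and 1520 in Col-0 (interaction -1.17 ± 0.23, adjusted p = 0.0119). EXO, a growth gene induced by brassinosteroids, averaged 1883, 1559, 3558 and 1136 in the same order (interaction -1.38 ± 0.29, adjusted p = 0.0197). In EXLA1 and EXO the pap1-D mean was the highest of the 4, and in EXPA8 the Col-0 mean was.

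Among cold, drought and abscisic acid genes, 5 of 12 were tested and 1 passed, against 1.17% of all tested probe sets. COR27, which is induced by cold and acts on the circadian clock, read 3719, 3664 and 3696 in pap1-D/tt4, against 4433, 3611 and 3982 in tt4. It read 1220, 1395 and 1620 in pap1-D, against 517, 784 and 823 in Col-0, with an interaction of -1.08 ± 0.21 (adjusted p = 0.0119). COR15A and COR47 had interactions of 0.23 ± 0.33 and -0.41 ± 0.30 and did not pass. Of the flower and anther markers, 3 of 9 had a named probe set and 2 were tested. ROXY2, a glutaredoxin gene of anther development, read 166, 56.9 and 126 in pap1-D/tt4, against 48.9, 95.7 and 122 in tt4. It read 13.3, 17.2 and 40.8 in pap1-D, against 85.5, 146 and 142 in Col-0, with an interaction of 1.58 ± 0.36 (adjusted p = 0.0304). It passed in 6 of 12 fits that left out 1 array, and it was at -0.13 with WOX1-1 and MYB12OX as the pair with CHS. The tapetum gene ATA27 was dim and scattered, with means of 22.4 in pap1-D/tt4, 140.2 in tt4, 16.8 in pap1-D and 57.7 in Col-0, and an interaction of -0.58 ± 0.73. The root marker PYK10 was at -0.14 ± 0.26.

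In the jasmonate and ethylene defence list, 6 of 31 genes were tested and 0 passed, while the median interaction was 0.73, against 0.02 over all tested probe sets. The defensin gene PDF1.2b, whose copies may be read together, gave 3492, 8230 and 3813 in pap1-D/tt4, against 2558, 2289 and 2936 in tt4. It gave 542, 2980 and 130 in pap1-D, against 1213, 4001 and 1271 in Col-0. Its interaction of 2.37 had an SE of 1.06 (adjusted p = 0.316), and the array numbered 2 was the highest in 3 of the 4 genotypes. The jasmonate oxidase genes AT5G05600 and AT2G38240 were high on pap1-D/tt4 replicate 1 alone, at 2737 against 325 and 296, and at 1003 against 70.1 and 61.7. Their interactions were -0.27 ± 0.72 and 0.67 ± 0.74. STZ, a zinc finger gene of fast stress responses, gave 4827 for pap1-D replicate 1, and 535 and 546 for replicates 2 and 3. Its interaction was -1.07 ± 0.81, and 0 of the 2 tested genes of the touch and wound list passed. In the glucosinolate list 0 of 3 tested genes passed, with BCAT4, an aminotransferase that diverts methionine to glucosinolates, at 0.82 ± 0.26 (adjusted p = 0.12). HCT, of lignin synthesis, was at 0.30 ± 0.10 (adjusted p = 0.159), and 0 of 2 passed in its list. In the auxin list 0 of 3 passed, IAA29 being at -0.52 ± 0.28, and the shikimate, clock, salicylate, sulfur deficiency, sugar and starch lists had 0 calls among 7 tested genes. Over all tested probe sets 1.17% had a called interaction, so 0 calls in lists this small say nothing about them.

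The sets of called interactions were also read in the genotypes outside the contrast, set out in the order of the sample listing. In that listing Col-0 is first and tt4 last of the 8 genotypes, with pap1-D early and pap1-D/tt4 just before tt4. The sets were chosen by a contrast that holds Col-0 and tt4, so their values there are a description. Relative to Col-0, the median of the negative set was 0.38 in MYB12OX, 0.66 in pap1-D, 0.715 in WOX1-1 and 0.81 in WOX1-2. The lines without CHS had medians of 0.79 (MYB12OX/tt4), 0.74 (pap1-D/tt4) and 0.77 (tt4). In the positive set it was -0.32 in MYB12OX, -0.55 in pap1-D, -0.63 in WOX1-1 and -0.87 in WOX1-2. The lines without CHS had medians of -0.90 (MYB12OX/tt4), -0.99 (pap1-D/tt4) and -1.04 (tt4). MYB12OX has CHS and carries no pap1-D, and its median lay between Col-0 and pap1-D in both sets. The median of the positive set fell with each genotype in listing order, whereas the negative set did not follow that order over the later arrays. Over all tested probe sets, the first principal component (34.5% of the variance) rose with each genotype in listing order. Its mean was -25.4 in Col-0 and 21.1 in tt4. The labels do not say what the listing order stands for.

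**Figure D4:**
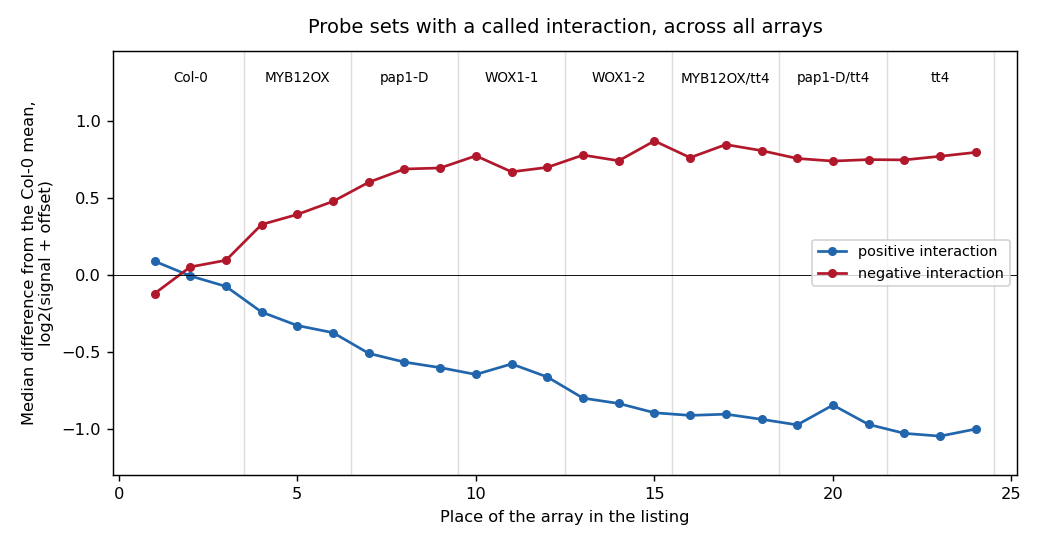
Median difference from the Col-0 mean, in log2(signal + 42.6), on each of the 24 arrays in listing order, for the 79 probe sets with a positive and the 96 with a negative interaction. Both sets move away from 0 over the first 9 arrays, and the negative set stays between 0.67 and 0.87 from the 8th array on.

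The mean listing places of the 4 genotypes sum to -9 in the contrast. When the listing place was added to the model as a covariate, the interaction was called for 20 probe sets (0.134%), of which 1 was among the 175. That 1 was the unnamed probe set with the lowest p, at -2.82 (adjusted p = 0.0195). In that fit 140 of the 175 kept their sign, and the medians were 0.25 for the positive and -0.32 for the negative set. The covariate is estimated within genotypes, where the place rises with the replicate number from 1 to 3. It thus extends a replicate trend over -9 places and cannot adjust for the place of the genotypes in the listing. The errors of that fit are also larger, for example 0.33 against 0.17 for EXPA8.

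A contrast that balances the listing place uses MYB12OX/tt4 in place of tt4 and MYB12OX in place of Col-0. It asks how pap1-D and MYB12OX lines differ without and with CHS, and it shares the arrays of pap1-D/tt4 and pap1-D with the contrast of the 4 genotypes. It called 1 probe set (0.0067%), again the unnamed one, at -2.51 (adjusted p = 8.58e-07). In this contrast the median of the 79 positive probe sets was 0.21 and that of the 96 negative ones -0.24. EXPA8 was at 0.18 ± 0.17 and AT5G55620 at 0.24 ± 0.10, AT5G01790 at 0.62 ± 0.16 and AT3G59350 at -0.79 ± 0.20, and none of the 36 named genes with a called interaction passed. The anthocyanin genes were at -0.11 for DFR, -0.17 for UF3GT, -0.41 for AT5MAT and -0.54 for AT4G14090, and none passed.

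**Figure D5:**
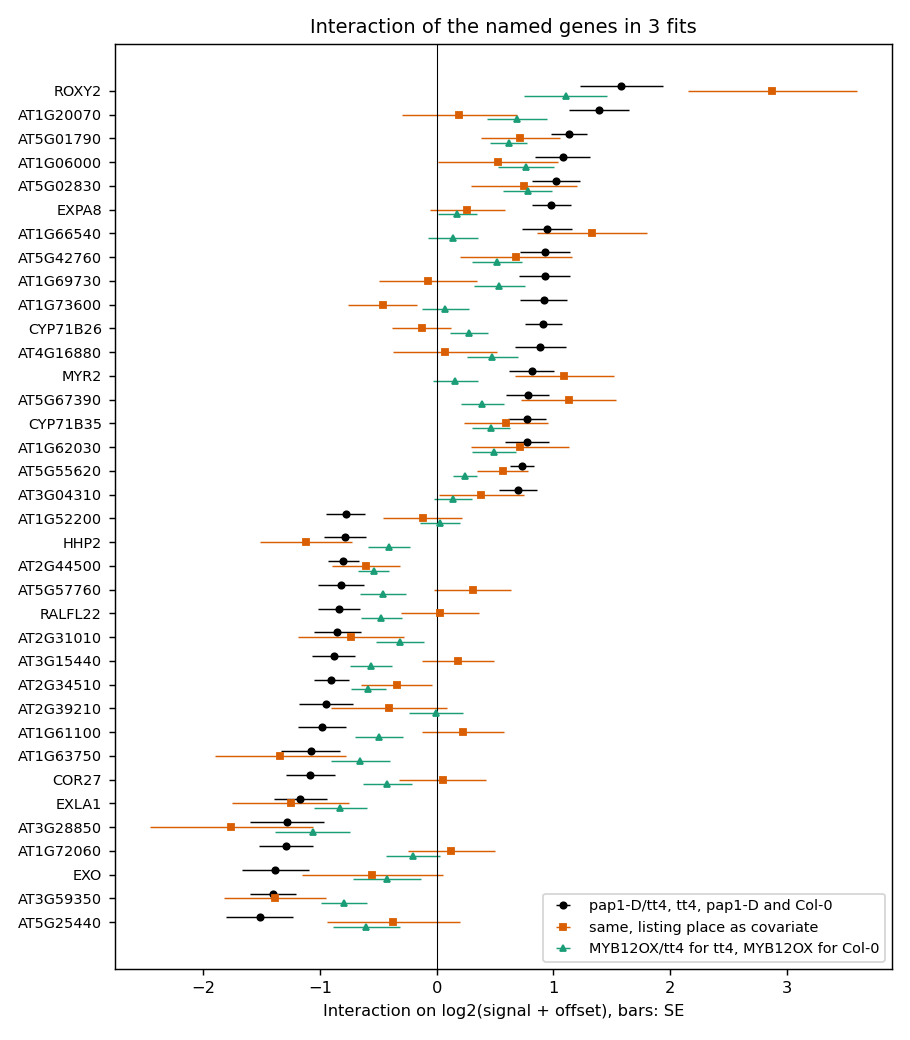
Interaction with its SE (log2 scale) of the 36 named genes with a call, in the fit of pap1-D/tt4, tt4, pap1-D and Col-0, in that fit with listing place added to the model, and with MYB12OX/tt4 and MYB12OX as the lines without pap1-D. Most values of the last contrast lie nearer to 0, with EXPA8 at 0.18 against 0.98.

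A further reading of pap1-D with CHS intact, chosen after seeing the data, came from the WOX1 lines against MYB12OX, which share no array with pap1-D and Col-0. Of the 757 probe sets that were higher in pap1-D than in Col-0, the median difference was 0.06 in pap1-D/tt4 against tt4, with 517 above 0, where 45.7% of all tested probe sets were above 0. In pap1-D/tt4 against MYB12OX/tt4 it was 0.02, with 421 above 0 (49% of all tested). In WOX1-1 against MYB12OX it was 0.25, with 683 above 0 (48.3% of all tested). In WOX1-2 against MYB12OX it was 0.29, with 686 above 0 (49.5% of all tested). For the 751 that were lower, the medians were -0.04, -0.05, -0.205 and -0.27 in the same order. Among the 48 that rose at least 2-fold in pap1-D, the median was 0.21 in pap1-D/tt4 against tt4 and 0.64 in WOX1-1 against MYB12OX. These pairs lie -3, 3, 6 and 9 places apart in the listing, and pap1-D and Col-0 lie 6 apart, so CHS status and listing distance cannot be told apart in them.

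The anthocyanin genes were higher in the line with pap1-D in all of these pairs. DFR differed by 5.00 in pap1-D/tt4 against tt4, 4.845 in pap1-D/tt4 against MYB12OX/tt4, 4.80 in WOX1-1 against MYB12OX and 4.86 in WOX1-2 against MYB12OX (SE 0.19 each). UF3GT differed by 2.92, 3.23, 3.18 and 3.10 in the same pairs (SE 0.13 each). With the WOX1-1 and MYB12OX arrays as the CHS-intact pair, the interaction was called for 31 probe sets (0.208%), and with WOX1-2 for 546 (3.66%). These fits share the arrays of pap1-D/tt4 and tt4 with the contrast of the 4 genotypes.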

How the data were processed

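RNA of 24 samples was hybridised to ATH1 arrays. The deposited values are linear signal intensity, for which the submitters' processing notes name MAS5 without a version. After trimming 2% at each end every array had a mean signal of 500, which hides a shift of most genes. There is no detection call, so dim signals cannot be told from background, and the number of arrays limits the precision. Left out were 64 control probe sets of 22810. Kept were probe sets above 85.2 (median of 170.4 divided by 2) on at least 3 arrays, 14935 of 22746.

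The offset was the median divided by 4. The model was limma's (version 3.58.1, R 4.3.3; empirical Bayes with an intensity trend), two-sided, with 1 mean per genotype (16 residual degrees of freedom). Names came from the platform annotation through RefSeq (TAIR10.1, names only): 13513 probe sets had 1 gene, 503 several and 8730 none, and 13436 matched a RefSeq gene. Named were tested members of 22 lists and, outside them, up to 15 called genes per direction by size of interaction with a genotype mean above 85.2, and up to 6 per direction between pap1-D/tt4 and tt4; a gene with several probe sets was read by its brightest. Comparison and lists were chosen with earlier results of these data known. In simulated data for the interaction over 14935 probe sets, 84% of 100 changes of 1 and 99% of 100 changes of 2 on the log2 scale were recovered, with 9 false calls. The simulated noise was independent between arrays, without other genotype differences or a trend over the listing, and the changes were put in pap1-D/tt4 alone. These rates therefore need not hold for the real arrays. Alternatives changed offset, filter, scaling, arrays, variance model, replicate block, listing place and reference lines.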

Additional observations from a re-analysis of the deposited data

Results flagged for a closer look

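Of the 175 probe sets whose interaction term passed in the limma fit, 36 genes named in the report and the unnamed probe set of lowest p are given here, since the term is itself the test of a difference between the responses without and with CHS. Of the 36, 0 passed with listing place in the model, where 9 had the other sign, and 0 passed with the MYB12OX lines as the lines without pap1-D. The unnamed probe set, at -2.37, passed in both. The listing place fit follows the replicate number within genotypes and does not adjust for the order of the genotypes. AT1G06000, AT1G66540 and AT5G42760 were tested only because of their Col-0 arrays. Among genes of the lists the values were 1.58 for ROXY2, 1.08 for AT1G06000, 0.98 for EXPA8, -1.08 for COR27, -1.17 for EXLA1 and -1.38 for EXO.

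Outside the lists the positive values were 1.39 for AT1G20070, 1.14 for AT5G01790, 1.02 for AT5G02830, 0.94 for AT1G66540, 0.93 for AT5G42760, 0.93 for AT1G69730, 0.92 for AT1G73600 and 0.92 for CYP71B26. They were 0.89 for AT4G16880, 0.81 for MYR2, 0.78 for AT5G67390, 0.78 for CYP71B35, 0.78 for AT1G62030, 0.73 for AT5G55620 and 0.70 for AT3G04310.

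The negative values were -1.52 for AT5G25440, -1.40 for AT3G59350, -1.29 for AT1G72060, -1.28 for AT3G28850, -1.08 for AT1G63750, -0.98 for AT1G61100, -0.95 for AT2G39210 and -0.90 for AT2G34510. They were -0.88 for AT3G15440, -0.85 for AT2G31010, -0.83 for RALFL22, -0.82 for AT5G57760, -0.80 for AT2G44500, -0.79 for HHP2 and -0.78 for AT1G52200.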

How the results depend on the processing

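The interaction count of 175 was within 1.5 times under other offsets and filters, quantile normalization, no intensity trend, array weights and without all arrays numbered 1 (136 to 211). It was 60 when only these 4 genotypes were fitted and 391 with a replicate block. It was 20 with listing place in the model, 31 and 546 with WOX1-1 and WOX1-2 against MYB12OX as the CHS-intact pair, and 1 with the MYB12OX lines as the lines without pap1-D. Leaving out 1 array gave 53 (without Col-0 replicate 1) to 254 (without pap1-D replicate 1, and also without Col-0 replicate 3). It gave 78 without pap1-D replicate 3, 83 without pap1-D/tt4 replicate 2, 99 without Col-0 replicate 2, 101 without tt4 replicate 2, 107 without pap1-D replicate 2 and 114 without tt4 replicate 3. Same-numbered arrays correlated above 0.1 in 7 of 18 pairs (-0.08 to 0.28). The main fit has no replicate term, although the count of 391 with a replicate block was larger. Whether the numbers pair the samples was not tested.

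The count between pap1-D/tt4 and tt4 was 17 to 26 without 1 array and 80 with the listing place. The count between pap1-D and Col-0 was 716 (without Col-0 replicate 1) to 1378 (without Col-0 replicate 3), 879 without pap1-D replicate 3, 992 without all arrays numbered 1 and 163 with the listing place. The replicate block changed neither by more than 1.5 times.

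Of the 36 named genes with a called interaction, 36 passed with the replicate block, 13 on the 4 genotypes alone, 13 without Col-0 replicate 1 and 0 with the listing place. In that last fit 9 had the other sign: COR27 (0.054), AT1G69730 (-0.077), AT1G73600 (-0.46), CYP71B26 (-0.13), AT1G72060 (0.13), AT1G61100 (0.23), AT3G15440 (0.18), RALFL22 (0.027) and AT5G57760 (0.31). So did EXO (0.18) and MYR2 (-0.18) with WOX1-2, ROXY2 (-0.13) with WOX1-1 and AT1G52200 (0.027) with the MYB12OX lines. The cause was not tested, and the fit with the listing place rests on replicate order within genotypes.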
